A study of Mus musculus with 5 samples.

Results

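The comparison described here set the T cells of one single-cell library against those of another, called Gb and Hb. Gb was the library whose barcodes ended in 2 in the aggregated matrix named G, and Hb was the library whose barcodes ended in 2 in the matrix named H. A barcode counted as a T cell when it held 500 or more unique molecular identifiers (UMIs, each marking 1 captured RNA molecule) from 300 or more genes, with no more than 10% of them mitochondrial. It also had to hold at least 2 of the 5 T cell genes Cd3d, Cd3e, Cd3g, Lck and Lat. This rule took 3033 of 3549 barcodes in Gb and 3878 of 4365 in Hb, or 6911 of the 25623 barcodes of the series.

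The study profiled naive OT-II CD4 T cells, which carry a transgenic receptor for an ovalbumin peptide on MHC class II. They were cultured alone, or overnight with antigen-presenting cancer-associated fibroblasts (apCAFs) of the mouse pancreatic tumor clones sKPC or rKPC, with the vehicle DMSO or with OVA. The T cells were purified by negative selection from the spleen of 1 naive OT-II mouse per the labels, and the apCAFs were sorted from dissociated tumors. Each of the 5 conditions had 1 sample.

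Which condition Gb and Hb held is inferred and not stated by any source used here. The labels tie 2 samples to matrix G (OT-II cells alone, and with sKPC apCAFs in DMSO) and 3 to matrix H (sKPC with OVA, rKPC with DMSO, rKPC with OVA), but the barcodes of G carried 3 suffixes and those of H carried 2. If the matrix names were exchanged against the labels, and the suffixes followed the order of the labels, Gb would be the rKPC and Hb the sKPC apCAF coculture, both in DMSO without peptide. The matrices were aggregated separately, so a difference between Gb and Hb cannot be told apart from one of aggregation, culture or library. With 1 library a side there was no replicate to check a difference against, and no test was made. Every value below therefore describes the libraries, and intervals cover counting error only.

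Naive CD4 T cells circulate with a quiescence program kept by factors such as Klf2, Tcf7, Lef1 and Foxo1, and the homing receptors Ccr7 and S1pr1. Recognition of peptide on MHC class II by the T cell receptor (TCR) induces early response genes, among them the Nr4a and Egr families, Irf4 and Cd69, and then receptors such as Il2ra. Antigen-presenting fibroblasts are known for MHC class II without the full set of costimulatory ligands, and have been linked to regulatory T cell induction, which is marked by Foxp3.

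The T cells of Gb held 25439062 UMIs, with a median of 7957 UMIs and 2773 genes per cell, and those of Hb held 33656414, with medians of 8248.5 and 2874. Mitochondrial genes took 2.06% and 1.92% of the UMIs, and ribosomal protein genes 16.2% and 17.0%. Cd3d had a UMI in 93.3% of the T cells of Gb and 94.6% of those of Hb, and Lat, the least often detected of the T cell genes, in 77.0% and 81.8%. At the edge of the rule, 138 cells of Gb and 134 of Hb held exactly 2 T cell genes (median 1942.5 and 1696 UMIs), and 148 and 184 barcodes with 1 such gene stayed out (median 1150 and 1170 UMIs). Gb and Hb shared 6 barcode sequences, 5 of them among T cells. The other libraries (Ga and Gc in matrix G, Ha in matrix H) are given beside some values as context.

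The T cells of Gb and Hb were close to each other for nearly every measured gene. Levels are given as CPM, a gene's UMIs per 1000000 UMIs of the T cells of that library. Of 10587 genes with at least 200 UMIs over both libraries, 183 (1.73%) were at least 1.5-fold higher in Gb and 33 (0.312%) at least 1.5-fold higher in Hb, with a median log2 ratio of 0.0062. With every cell thinned to 1500 UMIs the counts were 247 and 261, and their share of the genes measured is not given here. Thinning leaves fewer UMIs per gene, which adds counting error in both directions. The thinned counts therefore do not show that the larger number in Gb was absent. Set beside Hb without thinning, Ha gave 126 genes (1.16%) higher in Ha and 44 (0.406%) higher in Hb. In the same way Ga gave 779 (6.99%) and 201 (1.8%). These comparisons share the library Hb.

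**Figure D1:**
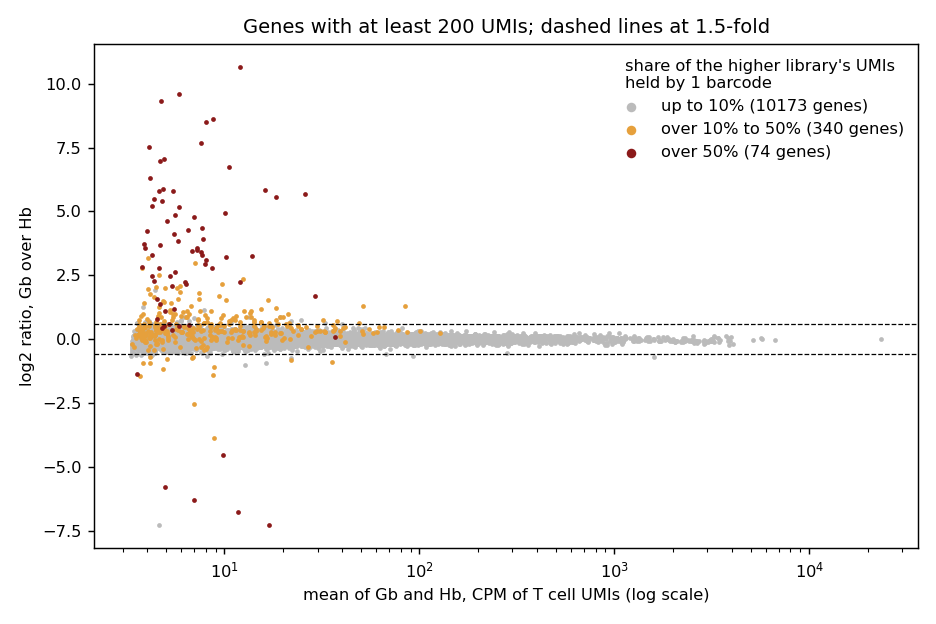
Each point is 1 of the 10587 genes with at least 200 UMIs, with its mean level in the T cells of Gb and Hb (x axis, CPM, log scale) and its log2 ratio of Gb over Hb (y axis, 0.5 UMI added to each count). Colors give the share of the gene's UMIs in the library where it is higher that came from a single barcode, and dashed lines mark 1.5-fold. Most of the 183 genes past the upper line are orange or dark red, with over 10% of their UMIs in 1 barcode.

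Many of the genes higher in Gb held a large share of their UMIs in single barcodes that passed the T cell rule. Of the 183 genes higher in Gb, 159 had over 10% and 62 over 50% of their Gb UMIs in 1 barcode. Of the 33 higher in Hb, 20 had over 10% and 6 over 50%. The cell barcode is the 16-base tag that all RNA of a droplet shares, so the sequences below identify the droplets in question. They are printed 5′ to 3′, all in capitals because the whole tag is the identifier, and they are the 6 barcodes that each held over 50% of their library's UMIs of at least 1 gene past 1.5-fold.
Gb barcode 1: GTCTCACTCATTTGCT
Gb barcode 2: ACCCTCAGTGGGTTGA
Gb, basophil genes: ATAGGCTGTACTAACC
Hb barcode 2: GATTCGATCCGCGATG
Hb barcode 3: ATTTACCCATGGAATA
Hb barcode 4: ATAGACCAGCTTAAGA

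Gb barcode 1 held 278399 UMIs, 35.0 times the median T cell of Gb, and 4 UMIs of the 5 T cell genes. It held 9 of 11 fibroblast markers with 465 UMIs, among them 57 of Col1a2 and 79 of Col3a1, the chains of fibrillar collagens, and 193 of Fn1, the matrix protein fibronectin. It also held 895 UMIs of Hmga2, a chromatin protein of embryonic and tumor cells, and 218 of Grem1, a secreted BMP antagonist. It alone held over 50% of the Gb UMIs of 44 of the 183 genes.

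Gb barcode 2 held 186012 UMIs, 23.4 times the median, with 3 UMIs of the T cell genes and 229 UMIs over 8 fibroblast markers. It held 543 of the 610 UMIs of Ptgs2 in Gb, the inducible cyclooxygenase of prostaglandin synthesis, against 0 UMIs in the T cells of Hb. It also held 375 UMIs of Hbegf, an EGF receptor ligand, 216 of Ccn1, a matrix-associated protein, and 268 of Cald1, an actin regulator. In both droplets fibroblast marker UMIs outnumbered those of the T cell genes, although both met the rule.

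The remaining barcode of Gb, with 34253 UMIs, held 442 of the 444 UMIs of Mcpt8 and 290 of the 296 UMIs of Prss34, both proteases of basophils. In Hb, barcode 2 with 68668 UMIs held 1110 of the 1135 UMIs of S100a8, a calcium-binding protein of neutrophils, and 661 of the 786 UMIs of Elane, neutrophil elastase. Hb barcode 3, with 64510 UMIs, held 264 UMIs of Mpo, the granule enzyme myeloperoxidase. Hb barcode 4, with 58141 UMIs, held over 50% of the Hb UMIs of Apba1. It also held 187 of the 1388 UMIs of MHC class II genes in the T cells of Hb.

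Barcodes of over 40000 UMIs numbered 4 in each library and held 2.19% of the T cell UMIs of Gb and 0.803% of those of Hb. This limit was chosen after the values were seen, and the nearest barcodes lay at 45475 and 36098 UMIs in Gb and at 58141 and 34333 in Hb. Without them, 46 of 10431 genes (0.441%) were at least 1.5-fold higher in Gb and 27 (0.259%) higher in Hb. Of the 183 genes, 66 remained past 1.5-fold, 39 of them with 200 UMIs or more, and of the 33 genes higher in Hb 24 remained. The large barcodes held over 50% of the UMIs of 84 of the 183 genes and of 9 of the 33. The 11 fibroblast markers summed to 31.3 CPM in the T cells of Gb and 3.71 in those of Hb, and to 3.94 and 2.28 without the large barcodes. Postn was at 0 UMIs in Gb, and Lum and Pdgfra in Hb. Cells with 3 or more of these markers numbered 7 in Gb and 0 in Hb. The 4 neutrophil markers summed to 1.42 and 44.3 CPM, and to 0.844 and 1.41 without them, with Retnlg at 0 in Hb. The 6 macrophage markers summed to 45.7 and 42.5 CPM, and to 11.5 and 6.29 without them. No doublet caller was applied here, so droplets with more than 1 cell were kept.

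The early TCR response list gave nearly the same level in both libraries. Its 22 genes summed to 548 CPM in Gb and 541 in Hb, a log2 ratio of 0.020 (95% interval -0.012 to 0.052), against 1646 in Ga, 1568 in Gc and 625 in Ha. Of its 14 measured members 1 was past 1.5-fold in each direction: Ier3, an immediate early gene, at 7.74 CPM in Gb and 0.773 in Hb, with 130 of 197 Gb UMIs in Gb barcode 2, and Irf8, a factor of myeloid and B cells, at 3.73 and 6.36 CPM. Without the large barcodes neither was, and the list's log2 ratio was -0.0045. The sign of so small a ratio differed between settings, from -0.040 to 0.019 over the alternatives.

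The summed levels of the rare TCR response genes Nr4a1 and Irf4 were higher in Gb than in Hb, and far below those of Ga and Gc. Nr4a1, an orphan nuclear receptor that reports TCR signaling, had 90 UMIs in 38 cells of Gb and 39 UMIs in 24 cells of Hb. That is 3.54 against 1.16 CPM, a log2 ratio of 1.60 (1.05 to 2.19), below the minimum of 200 UMIs, and it stood at 2.15 CPM in Ha, 132 in Ga and 117 in Gc. Irf4, a factor graded with TCR strength, had 62 UMIs in 38 cells and 29 UMIs in 27 cells, or 2.44 and 0.862 CPM (log2 ratio 1.49, 0.84 to 2.19), against 1.77 in Ha, 157 in Ga and 133 in Gc. Both genes thus had a higher summed level in Gb than in Hb, and a far higher one in Ga and Gc than in either. Without the large barcodes the log2 ratios were 1.30 and 1.51.

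Other members of the response differed less. Cd69, an early membrane receptor that retains T cells in tissue, was at 26.4 CPM in Gb and 20.4 in Hb (log2 ratio 0.38, 0.22 to 0.53), with 221 in Ga. Egr1, a zinc finger factor, was at 5.50 and 4.52 CPM (0.29, -0.06 to 0.63), and at a log2 ratio of 0.04 without the large barcodes. Il2ra, the interleukin-2 receptor alpha chain, was at 8.45 and 8.59 CPM (-0.02, -0.28 to 0.24), against 11.1 in Ha and 229 in Ga. For Egr1 and Il2ra the interval holds 0, which does not show that the libraries were alike.

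Counted per cell, a UMI of any of 8 TCR response genes (Nr4a1, Nr4a2, Nr4a3, Egr1, Egr2, Egr3, Irf4 and Il2ra) was found in few cells of either library. After each cell was thinned to 1500 UMIs, the share was 2.80% (83 of 2968, Clopper-Pearson interval 2.23 to 3.46) in Gb and 2.03% (77 of 3802, 1.60 to 2.52) in Hb. The thinning left out 65 and 76 shallower cells, and the unthinned shares were 9.36% and 8.25%. The thinned difference was 0.771 percentage points (0.0400 to 1.54). The unthinned one was 1.11 points (-0.228 to 2.48), an interval that holds 0. The thinned share was 2.78% in Ha, 20.9% in Ga and 18.8% in Gc. Among barcodes with erythroid markers and no T cell gene, 0 of 10 held a thinned UMI, which at that number allows up to 30.8% (exact bound), with a median of 8607 UMIs before thinning. Among barcodes with B cell markers, a cell type that uses several of these genes, 2 of 8 did. These are too few to set a background, so shares of this size are not read as expression. In Gb 1 cell of 2968 held 3 or more of the 8, and in Hb 2 of 3802, against 423 of 5067 in Ga and 434 of 6174 in Gc.

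**Figure D2:**
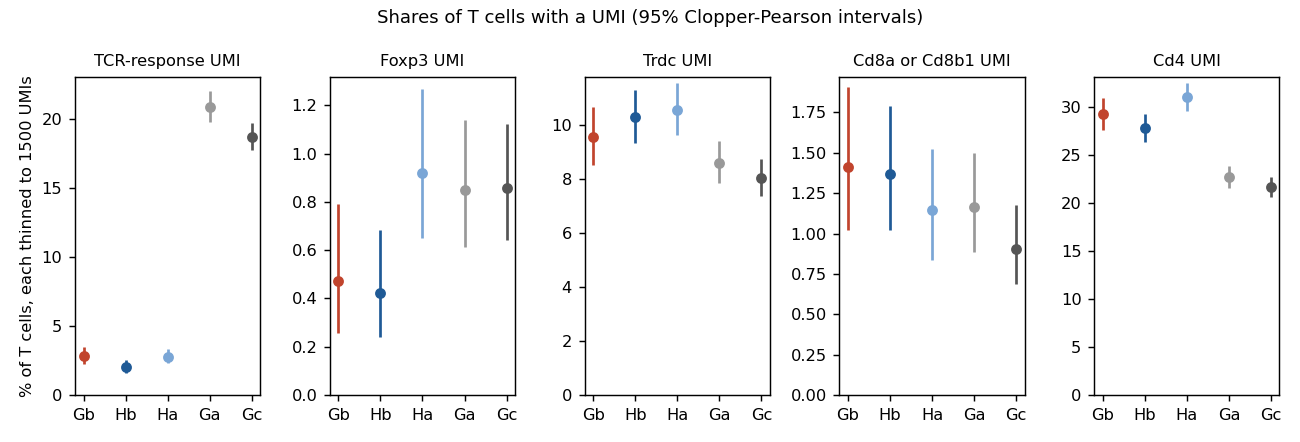
Shares of T cells with a UMI of the named genes (y axes, percent, each with its own scale from 0) in each of the 5 libraries, every cell thinned to 1500 UMIs; bars are 95% Clopper-Pearson intervals of counting error. For the TCR response genes Gb (2.80%), Hb (2.03%) and Ha (2.78%) sit far below Ga (20.9%) and Gc (18.8%). The intervals of Gb and Hb overlap for the TCR response genes and for Foxp3, Trdc, Cd8 and Cd4.

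Naive genes also matched closely. The 20 genes of the naive and quiescence list summed to 15910 CPM in Gb and 16000 in Hb (log2 ratio -0.0081, -0.0140 to -0.0022), and the sign differed between settings (-0.023 to 0.025). Klf2, which drives the expression of homing receptors, was at 597 and 660 CPM, a log2 ratio of -0.14 (-0.17 to -0.11). S1pr1, the receptor for exit from lymphoid organs, was at 577 and 619 CPM (-0.10), and Ccr7, the chemokine receptor of lymph node entry, at 173 and 185 (-0.10). Il7r, the receptor of the survival cytokine interleukin-7, lay the other way, at 947 and 877 CPM (0.11, 0.09 to 0.14). All 4 differed by less than 1.5-fold. The 1 member past it was Igfbp4, a secreted IGF-binding protein, at 10.4 and 2.35 CPM, with 142 of its 265 Gb UMIs in 1 barcode. Without the large barcodes it had 52 UMIs in Gb and 42 in Hb.

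The regulatory T cell list was higher in Gb by a small margin. Its genes summed to 558 CPM in Gb and 482 in Hb (log2 ratio 0.21, 0.18 to 0.24), with 0 of 10 measured members past 1.5-fold and a median member of 0.17. Foxp3, the factor that defines the lineage, had 131 UMIs in 52 cells of Gb and 122 in 60 cells of Hb, or 5.15 and 3.62 CPM (0.51, 0.14 to 0.87), against 9.60 in Ha, 11.1 in Ga and 8.48 in Gc. Ikzf2, a zinc finger factor of regulatory and other T cells, was at 264 and 216 CPM (0.29). Ctla4, an inhibitory receptor, was at 51.3 and 40.7 CPM (0.33, 0.22 to 0.45). Tnfrsf18, the costimulatory receptor GITR, lay the other way, at 41.4 and 49.8 CPM (-0.26).

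Foxp3 cells themselves were few in both libraries. The interval of the difference in their share held 0, which does not show that the shares were alike. The thinned share with a Foxp3 UMI was 0.472% (14 of 2968) in Gb and 0.421% (16 of 3802) in Hb, a difference of 0.0509 points (-0.273 to 0.408), and the unthinned shares were 1.71% and 1.55%. Cells with at least 2 Foxp3 UMIs made up 0.791% (24 cells, 0.508 to 1.18) and 0.696% (27 cells, 0.459 to 1.01), against 1.35% in Ha. None of 18 barcodes with B cell or erythroid markers and no T cell gene (median 9927 UMIs) held a thinned Foxp3 UMI, which at that number allows a share of up to 18.5% (exact bound). Without cells holding Foxp3 the list's log2 ratio was 0.18, and after thinning each cell to 1500 UMIs it was 0.12. In Gb and Hb alike, the Foxp3 level was thus below that of each other library.

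The inhibitory receptor list summed to 942 CPM in Gb and 846 in Hb (log2 ratio 0.16), with 0 of 7 measured members past 1.5-fold and a median member of 0.11. Tox, a chromatin factor of chronically stimulated T cells and not a receptor, is in this list, at 669 and 579 CPM (0.21). It gave the largest part of both sums and most of the difference between them. The list's ratio therefore does not show that the receptors themselves were higher in Gb. Costimulatory receptors summed to 1173 and 1148 CPM (0.03), with 0 of 13 past 1.5-fold. Cytokines and chemokines summed to 427 and 424 CPM (0.010), with 0 of 4. Il2, the growth factor of activated T cells, had 16 UMIs in Gb and 45 in Hb, or 0.629 and 1.34 CPM (-1.06, -2.01 to -0.24), and Tnf had 66 and 91 (-0.06, -0.54 to 0.41). Il2 at these counts was far below the 13.3 CPM of Gc.

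The interferon lists summed slightly higher in Hb. The interferon gamma response list summed to 930 CPM in Gb and 993 in Hb (log2 ratio -0.09, -0.12 to -0.07), and the type I interferon list to 504 and 529 (-0.07, -0.11 to -0.04), with 0 of 14 and 0 of 13 measured members past 1.5-fold. Gbp2, an interferon-induced GTPase, was at 31.2 and 33.5 CPM (-0.10, -0.23 to 0.03), while Ga and Gc held 140 and 181. Isg15, a ubiquitin-like protein, was at 6.45 and 7.43 CPM (-0.20, -0.50 to 0.09). Psmb9, a subunit of the immunoproteasome, was at 56.1 and 68.3 CPM (-0.28). Cd274, the ligand PD-L1, was at 32.5 and 30.7 CPM (0.08), so members of the list lay on both sides.

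The memory list gave the widest apparent difference, and it depended on the large barcodes. Its genes summed to 845 CPM in Gb and 623 in Hb (log2 ratio 0.44, 0.41 to 0.47), with 6 of 14 measured members past 1.5-fold, beside 1.73% of all genes. These were Tshz2, a homeobox factor, S100a4 and S100a6, calcium-binding proteins, Anxa1 and Anxa2, membrane-binding annexins, and Vim, the intermediate filament vimentin. S100a6 was at 119 and 48.5 CPM, but 1160 of its 3032 Gb UMIs came from 1 barcode. S100a4 was at 72.9 and 29.4 CPM, with 835 of 1855 in 1 barcode. Without the barcodes of over 40000 UMIs the list's log2 ratio was 0.09, Tshz2 (0.74) and Anxa1 (1.16) were still past 1.5-fold, and Vim was at 0.01. Over the alternatives the list's ratio ran from 0.07 to 0.63.

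**Figure D3:**
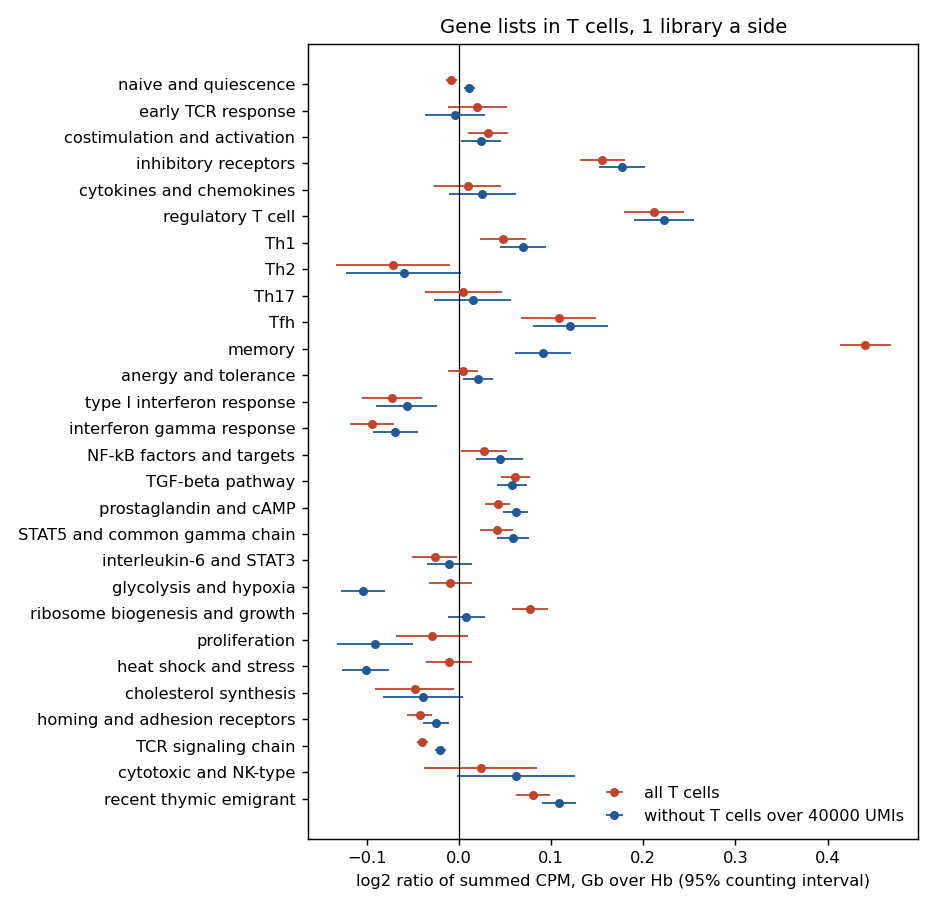
Log2 ratio of summed CPM, Gb over Hb (x axis), for each of the 28 gene lists in the T cells, with all T cells (red) and without those of over 40000 UMIs (blue); bars are 95% intervals of counting error. The memory list moves from 0.44 to 0.09, while the regulatory T cell list is at 0.21 and 0.22 (and at 0.12 after thinning, not drawn).

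Of the other lists, the Tfh list had 1 of 7 measured members past 1.5-fold (Tox2, a chromatin factor, at 5.11 and 3.12 CPM), the TGF-beta list 1 of 10 (Pmepa1, an inhibitor of the pathway, at 48.2 and 32.0 CPM, and a log2 ratio of 0.31 without the large barcodes) and the proliferation list 1 of 14 (Rrm2, a ribonucleotide reductase subunit, with 75 of 157 Gb UMIs in 1 barcode). The lists for Th1, Th2, Th17, anergy, NF-kB, prostaglandin and cAMP, STAT5, interleukin-6, glycolysis, ribosome biogenesis, heat shock, cholesterol synthesis, homing receptors, the TCR signaling chain, cytotoxic genes and recent thymic emigrants had none in either direction. Without the large barcodes 2 of the cytotoxic list were past 1.5-fold in Gb, Fcer1g and Tyrobp, signaling adaptors of NK and myeloid cells. Over all measured genes 2.04% were past 1.5-fold in either direction, and 0.700% without the large barcodes. In lists this short, counts of 0 or 1 member in a direction, here and in the lists above, are not read as results about the lists. All lists and the comparison were drawn up with results of these data known, so the list counts are descriptions.

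The T cell make-up was compared by the share of cells with a UMI of subset genes. A Cd4 UMI was found in 29.2% of thinned cells of Gb and 27.8% of Hb (unthinned 68.9% and 70.7%), Trdc, the constant region of the delta chain, in 9.57% and 10.3% (unthinned 19.7% and 22.2%), and Cd8a or Cd8b1 in 1.42% and 1.37% (unthinned 5.84% and 6.47%). None of the 18 barcodes with B cell or erythroid markers held a thinned UMI of these genes, a number that allows up to 18.5% (exact bound). The intervals of all 3 thinned differences held 0, while that of the unthinned Trdc difference, -2.47 points (-4.38 to -0.531), did not. Trbv12-2, the most abundant beta chain segment, took 56.5% of the beta variable UMIs in Gb and 54.4% in Hb. The 4 gamma-delta T cell markers summed to 132 CPM in Gb and 155 in Hb. Tcrg-C1, a gamma chain constant region named after its values were seen, was past 1.5-fold, at 6.29 CPM in Gb and 10.07 in Hb, with a UMI in 3.30% and 4.72% of T cells.

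UMIs of genes that mark other blood cells were detected in the T cells of both libraries, and whether they came from those cells was not tested. The 6 B cell markers summed to 171 CPM in Gb and 202 in Hb, and the barcodes outside the T cells held 6026 and 1548 CPM. The 5 erythroid markers, mainly hemoglobin genes, summed to 61.1 and 54.9 CPM, against 833 in Ga. So the B cell markers were higher in Hb inside the T cells and higher in Gb outside them.

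Named genes were chosen by a rule that required a UMI in at least 20 T cells of the library where the gene was higher. It set aside genes with over 10% of their UMIs there in 1 cell, or with far higher levels outside the T cells. The rule then took the 12 in each direction whose interval lay farthest from 0. A named gene could still be held by few cells, as B3galt1 was by 1.45% of the T cells of Gb. Of the 12 higher in Gb, 7 were past 1.5-fold (6 without the large barcodes), and of the 12 higher in Hb, 3 were. Since the choice used the ratios, these values are a description.

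The clearest gene higher in Gb was B3galt1, a galactosyltransferase of glycolipids and glycoproteins on chromosome 2 (67565871 to 68122689, plus strand, GRCm38). It had 177 UMIs in 44 cells of Gb and 62 in 23 cells of Hb, or 6.96 and 1.84 CPM (log2 ratio 1.91, 1.49 to 2.36). The other libraries lay near Hb, at 2.48 in Ga, 3.0 in Gc and 2.40 in Ha, so Gb was the only one of the 5 above 3.0 CPM. In Gb, 39 of the 44 B3galt1 cells also held Cd4 (88.6%, beside 69.0% of all T cells), 5 held Foxp3 and 15 held at least 5 B3galt1 UMIs. B3galt1 thus came from few cells with several UMIs each.

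Gm47957, a long noncoding RNA, was at 10.8 CPM in Gb and 4.84 in Hb (log2 ratio 1.15, 0.87 to 1.44), and at 4.96 to 6.18 in the other libraries. It lies on chromosome 9 (52321896 to 52349311, minus strand), and 47 of its 48 Gb cells held Cd4. Eml6, of the microtubule-binding EMAP family, was at 17.2 and 9.39 CPM (0.87), Myo3b, a class III myosin, at 30.9 and 18.2 (0.76), Tshz2 at 27.4 and 16.7 (0.71) and Pon3, a lactonase, at 7.55 and 4.49 (0.75). For all of these Gb was the highest of the 5 libraries. In Gb, Myo3b was held by 130 cells and Tshz2 by 92, or 4.29% and 3.03% of the T cells.

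Ro60, an RNA-binding autoantigen, was at 18.6 and 12.3 CPM (0.59, and 0.37 without the large barcodes), and Runx2, a Runt family transcription factor, at 93.8 and 68.7 (0.45, and 0.29 without them). Trdc was held by 43.0% of the Runx2 cells of Gb and 47.1% of those of Hb, beside 19.7% and 22.1% of all T cells, and the Runx2 cells were also deeper (median 9017.5 and 9423 UMIs). Ldlrad3, a receptor of the LDL receptor family, was at 21.7 and 14.9 CPM (0.54), Eea1, an early endosome tether, at 60.9 and 44.8 (0.44) and Arhgef12, a guanine nucleotide exchange factor, at 25.4 and 18.1 (0.49). Mir155hg, the host transcript of the activation-induced microRNA miR-155, was at 16.6 and 11.4 CPM (0.55, 0.34 to 0.75), with 14.0 in Ha, 156 in Ga and 139 in Gc. Bhlhe40, a factor of activated T cells that barcodes outside the T cells also held (38.4 and 31.1 CPM there), was at 7.98 and 4.40 CPM (0.86).

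Among the genes higher in Hb, Snhg9, a small nucleolar RNA host gene annotated as antisense on chromosome 17 (24719531 to 24719965, minus strand), stood out. It had 286 UMIs in 258 cells of Gb and 724 in 601 cells of Hb, or 11.2 and 21.5 CPM (log2 ratio -0.93, -1.14 to -0.74), against 18.4 in Ga, 21.8 in Gc and 24.8 in Ha. Gb was thus the low library and Hb was within the range of the others. The sources used here do not say whether counting used strand, so reads of Snhg9 and of the gene it overlaps cannot be told apart.

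Gm2000, a predicted gene, was at 72.1 CPM in Gb and 113.9 in Hb (-0.66) and Sap18b, a paralog of the Sin3 complex gene Sap18, at 3.26 and 5.11 (-0.64). How counting split reads among close copies of such genes is not known here, so both values are uncertain. Sap25, a subunit of the Sin3 repressor complex, was at 12.8 and 19.0 CPM (-0.57), Tlr12, a Toll-like receptor, at 6.88 and 10.1 (-0.55), Macrod1, an ADP-ribose hydrolase, at 19.9 and 27.2 (-0.45), and Bloc1s1, of a lysosome biogenesis complex, at 27.5 and 36.6 (-0.41). Hist1h1e, a linker histone, was at 37.4 and 48.8 CPM (-0.38). Sap25 and Bloc1s1 came from many cells with few UMIs each: Sap25 had 641 UMIs in 585 cells of Hb and Bloc1s1 had 1233 in 989.

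**Figure D4:**
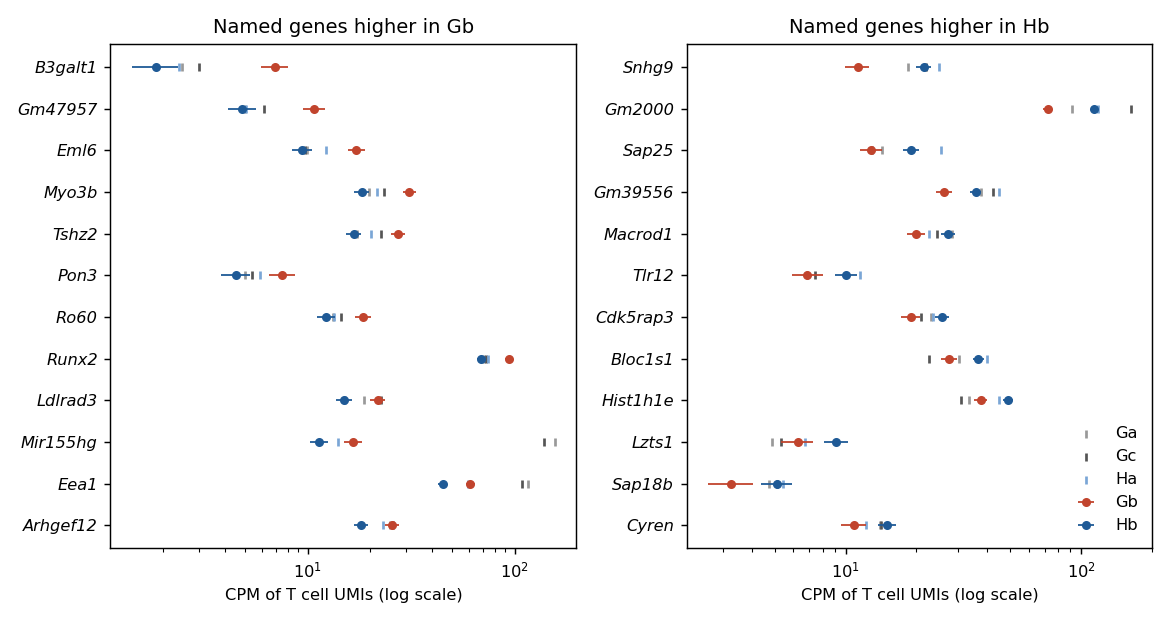
Levels (x axes, CPM, log scale) of the 12 named genes higher in Gb (left) and the 12 higher in Hb (right), with Gb in red, Hb in blue (bars are 95% Poisson intervals) and the other libraries as ticks. For B3galt1 Gb lies at 6.96 CPM with all others at 3.0 or below, and for Snhg9 Gb lies at 11.2 with all others at 18.4 or above.

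Several genes higher in Hb were also abundant in barcodes outside the T cells. Gm42418, which overlaps the ribosomal RNA locus on chromosome 17 (39846958 to 39848788, plus strand), was at 1213 CPM in Gb and 1987 in Hb (-0.71, -0.73 to -0.69), and at 10935 and 29192 CPM outside the T cells. Iglc1, an immunoglobulin lambda constant region, had 1 UMI in the T cells of Gb and 309 UMIs in 191 cells of Hb, or 0.0393 and 9.18 CPM (-7.29, interval -13.18 to -5.38), with 11.1 and 321 CPM outside the T cells. The other libraries held Iglc1 at 0.310 in Ga, 0.474 in Gc and 1.30 in Ha. Both genes were thus higher in Hb inside and outside the T cells, and the part of free RNA in them was not tested.

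The ratio of Gb over Hb varied with the length of the gene over the measured genes. The gene span is the distance from start to end in the GENCODE vM21 annotation (GRCm38), introns included, and 10428 of the 10431 genes measured without the large barcodes had one. The 12 named genes higher in Gb had a median span of 190 kb, with 8 over 100 kb, and the 12 higher in Hb one of 4.67 kb, with 1 over 100 kb, beside 24.4 kb over all measured genes, of which 12.4% span over 100 kb. Among all genes past 1.5-fold without the large barcodes, the 46 higher in Gb had a median of 116 kb, with 24 over 100 kb (52.2%). The 27 higher in Hb had a median of 8.44 kb, but 8 of them (29.6%) also spanned over 100 kb. B3galt1 spans 557 kb, Tshz2 439 kb and Myo3b 390 kb, while Snhg9 spans 0.435 kb and Sap25 1.57 kb.

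Over all genes the median log2 ratio of Gb over Hb grew with each span class. It was -0.10 for the 302 genes of up to 2 kb, -0.09 from 2 to 5 kb, -0.07 from 5 to 10 kb, -0.04 from 10 to 20 kb, 0.0083 from 20 to 50 kb, 0.04 from 50 to 100 kb, 0.07 from 100 to 200 kb and 0.08 for the 431 genes of over 200 kb. The share of genes higher in Gb was 32.1% up to 2 kb, 24.0% from 2 to 5 kb, 77.9% from 100 to 200 kb and 77.7% over 200 kb, so this share was not in order at the ends. Across genes, which are not independent replicates, Spearman's rank correlation was 0.39 for 10428 genes, and 0.39 with mitochondrial genes, ribosomal protein genes and receptor segments left out. Genes of 2 to 5 kb took 16.2% of the UMIs in Gb and 17.0% in Hb, and those over 200 kb 10.8% and 10.2%.

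Ha over Hb showed no such order, with medians between -0.0020 and 0.022 in every class and a rank correlation of -0.017. Gb over Ha gave a rank correlation of 0.33 and Gc over Hb one of 0.15, and Ga over Hb one of -0.0010, comparisons that share libraries with each other. The class medians of Gc over Hb also rose in order, from -0.105 in the shortest class to 0.065 in the longest. The order was thus not particular to Gb. The pattern in Gb and Hb was also there with other cell filters: over 7 other settings the median stayed between -0.11 and -0.09 for the shortest class and between 0.08 and 0.09 for the longest. It was found after the data were seen. The lists differed in span as well: the measured members of the regulatory T cell list had a median span of 30.2 kb and those of the early TCR response list 6.09 kb. The interferon gamma and type I interferon lists had median spans of 11.45 and 12.1 kb. Without the large barcodes their median members were at -0.046 and -0.095, beside -0.038 for all genes of 10 to 20 kb. The part of gene span in any list's ratio was not tested.

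**Figure D5:**
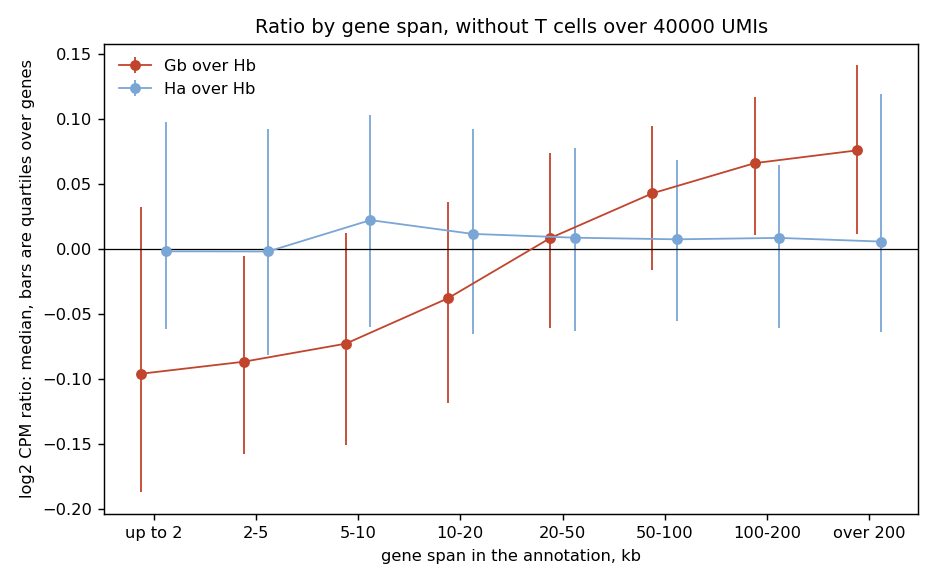
Median log2 CPM ratio (y axis) of measured genes by gene span (x axis, kb), Gb over Hb in red and Ha over Hb in light blue, without T cells of over 40000 UMIs; bars are the quartiles over genes. Gb over Hb runs from -0.10 in the shortest class to 0.08 in the longest, while Ha over Hb stays between -0.0020 and 0.022.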

How the data were processed

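Single-cell RNA was measured with the 10x Genomics 5' v2 kit. The authors deposited whole-number UMI counts for 32285 genes in 2 aggregated matrices. Per the submitters' processing notes Cell Ranger 6.0.0 and mm10 were used, and the matrix headers name cellranger 7.1.0. The sources used here do not say whether aggregation equalised depth or whether introns were counted. Libraries were split by barcode suffix, and no suffix was tied to a sample. UMIs of T cells were summed per library and scaled to CPM. Intervals at 95% (Poisson for levels, Clopper-Pearson for shares, binomial for ratios) cover counting error only, treat each UMI as independent, and say nothing of spread between cultures. A ratio adds 0.5 UMI to each count. With 1 library a side nothing was tested.

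Genes were measured with at least 200 UMIs over both libraries. The genes named are those outside the mitochondrial, ribosomal protein and receptor segment genes, held by at least 20 T cells and with no cell over 10% of the UMIs in the library where the gene is higher, and under 4 times the T cell level outside the T cells. Of these the 12 in each direction with the interval bound farthest from 0 were taken, plus at most 6 each that the last condition set aside, list members past 1.5-fold and 17 defining genes. Other genes (those of the large barcodes, Tox, Psmb9, Ikzf2 and Tnfrsf18) were chosen after their values were seen. Some results are not reported here. Members and lists were chosen with earlier results of these data known. Scripts were tested on simulated counts and used Python 3.11.15, numpy 2.4.6 and scipy 1.17.1.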

Additional observations from a re-analysis of the deposited data

Results flagged for a closer look

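Barcodes outside the T cells enter no comparison, but they held RNA of other cell types. The 11 fibroblast markers summed to 1347 CPM (2559 UMIs) in the barcodes of Gb outside the T cells and to 278 CPM (394 UMIs) in those of Hb. The 4 neutrophil markers summed to 1430 CPM there in Gb and 1677 in Hb. Inside the T cells, without barcodes of over 40000 UMIs, the fibroblast sums were 3.94 and 2.28 CPM. The libraries hold no control for these barcodes. The neutrophil sums came from 2718 and 2373 UMIs, and each of the 4 sums was above the 3 UMIs that a count of 0 allows, which is no test.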

How the results depend on the processing

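No paired analysis was possible because each group has 1 sample. Both counts of genes past 1.5-fold depended on the processing. Several settings, such as the minimum of UMIs, also change how many genes are measured, so a count alone does not show how the share moved. The share was 1.73% of 10587 genes for the 183 and 0.312% for the 33. For the 46 without barcodes of over 40000 UMIs it was 0.441% of 10431. The shares of the other counts below are not given here. The count higher in Gb went from 183 to 392 with a minimum of 100 UMIs, 58 with 500 and 4193 with none, 114 with the stricter cell filter, 101 with at least 3 T cell genes, 22 without the 5% of T cells with the most UMIs, 82 without cells with Foxp3 and 28 in cells with Cd4 and without Foxp3, Trdc, Cd8a and Cd8b1. With choices made after seeing the data it was 46 without barcodes of over 40000 UMIs, 46 without cells holding 3 markers of another type, and 58 with each gene's largest barcode left out. The count higher in Hb, 33, went to 98, 13 and 3442 with those minimums, 20 without the top 5%, 19 in the Cd4 cells, 20 without cells holding 3 markers of another type and 261 after thinning. Thinning gave 247 genes higher in Gb, so the 2 directions were then near equal in number. With fewer UMIs per gene, thinning adds counting error in both directions, so this does not show that the imbalance was absent.

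Of the lists, the memory list ran from 0.068 to 0.63 and the cytotoxic list from -0.088 to 0.62. The naive list was -0.014 with scaling by the median ratio, -0.022 without mitochondrial, ribosomal protein and segment genes in the total, 0.0030 with the stricter filter, 0.0062 with 3 T cell genes, 0.016 without the top 5%, 0.012 without Foxp3 cells, -0.023 without Trdc and Cd8 cells, 0.025 in the Cd4 cells, 0.0062 after thinning, and 0.011, 0.012 and 0.0033 under the choices made after seeing the data. The early TCR list was -0.021 with 3 T cell genes, -0.014 without the top 5% and -0.040 after thinning. The costimulation list was 0.0049 after thinning. The cytokine list was 0.071 without the top 5%, 0.064 without Trdc and Cd8 cells and 0.077 in the Cd4 cells. The regulatory T cell list was 0.18 without Foxp3 cells, 0.25 without Trdc and Cd8 cells, 0.25 in the Cd4 cells and 0.12 after thinning. Without Trdc and Cd8 cells the type I interferon list was -0.12 and the interferon gamma list -0.12, and the latter was -0.12 in the Cd4 cells, -0.069 without the large barcodes and -0.12 after thinning. With all UMIs of a cell the share differences were -2.47 points for Trdc, -0.637 for Cd8 and -1.78 for Cd4. The causes were not tested. Each of the 36 named genes kept its sign in all 13 alternatives. These genes were chosen by their ratios in the same libraries, so this was largely fixed by the choice and is no support for them. Depth limits Nr4a1, Irf4, Foxp3 and Il2, each with fewer than 200 UMIs in each library.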
